A study of Homo sapiens and Canis lupus familiaris with 27 samples.

Results

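A group of genes that the Wnt/β-catenin pathway switches on and that in turn adjust the pathway were followed in prostate carcinoma cells exposed to PDA-66. The genes were chosen by name as 10 of the 25300 gene names in the count tables of 3 cell lines: AXIN2, LEF1, TCF7, TCF7L2, NKD1, RNF43, ZNRF3, DKK1, LGR5 and LGR6. All 10 had a row in the tables of the human lines PC-3 and LNCaP. In the canine line CT1258 9 were listed, and LEF1 had no row. The tables hold the number of RNA sequencing reads per gene, without normalization. The lines had been exposed to PDA-66, an indolylmaleimide, a chemical class that includes inhibitors of the kinase GSK3, and the comparison addresses whether known targets of the pathway changed with the compound.

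In each of PC-3, LNCaP and CT1258 there were 3 groups: cells exposed for 12 h to PDA-66 at 15 µM, cells exposed to it for 24 h, and control cells given the solvent alone as 0.15% DMSO, labelled 24 h. Each group held 3 samples, except that the PC-3 controls used here were replicates 2 and 3. Replicate 1 of these controls, which the study left out of its own comparisons, was not analysed here. Because the controls were labelled 24 h, exposure and time in culture cannot be told apart in the 12 h comparisons, and both comparisons of a line share the same controls. Each line is 1 established culture, PC-3 from a human metastasis to bone, LNCaP a further human prostate carcinoma line, and CT1258 from a prostate carcinoma of a dog. The lines were grown in different media with fetal serum, so line and medium cannot be told apart. The study's methods call the replicates of a condition independent and biological, and the p-values measure the spread between them.

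In the absence of a Wnt ligand, β-catenin is bound by a cytoplasmic complex of AXIN proteins, APC, GSK3 and casein kinase 1 and is marked for degradation. When ligands bind Frizzled and LRP receptors, or when GSK3 is inhibited, β-catenin accumulates, enters the nucleus and joins the TCF/LEF proteins at their target genes. Several of those targets are parts of the pathway itself: AXIN2 and NKD1 restrain it in the cytoplasm, RNF43 and ZNRF3 remove the receptors from the membrane, DKK1 blocks LRP from outside the cell, and LGR5 and LGR6 bind R-spondins, which hold RNF43 and ZNRF3 in check.

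The TCF/LEF proteins recognise a short element whose core reads CTTTGA, or TCAAAG on the other strand. The 250 bases before a transcription start were read from a RefSeq table of build GRCh38.p14, which held 12 such windows for 6 of the 10 genes, and both letterings were searched. Of the 12 windows only that of DKK1 held the core, and 11.2% of all 35116 windows in the table held it. The windows of DKK1 and of the 3 TCF/LEF genes tested in PC-3 are shown because these are the secreted inhibitor and the nuclear members described below, with the core in capitals where present. The table held 2 windows for TCF7 and 3 for TCF7L2, of which the most upstream is printed. The printed windows lie at chr10:52314031-52314280 on the + strand for DKK1, chr5:134115363-134115612 on the + strand for TCF7, chr10:112949997-112950246 on the + strand for TCF7L2 and chr4:108166302-108166551 on the - strand for LEF1, and each reads 5′ to 3′.
DKK1: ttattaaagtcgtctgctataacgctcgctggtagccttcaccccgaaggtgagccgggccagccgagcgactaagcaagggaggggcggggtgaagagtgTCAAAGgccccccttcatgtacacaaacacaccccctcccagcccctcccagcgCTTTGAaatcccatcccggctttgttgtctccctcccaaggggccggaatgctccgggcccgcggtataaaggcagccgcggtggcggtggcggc
TCF7: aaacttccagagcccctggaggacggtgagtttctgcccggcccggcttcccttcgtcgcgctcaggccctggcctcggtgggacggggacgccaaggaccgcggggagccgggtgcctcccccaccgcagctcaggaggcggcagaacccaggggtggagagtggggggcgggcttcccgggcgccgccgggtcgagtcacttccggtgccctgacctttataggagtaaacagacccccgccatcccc
TCF7L2: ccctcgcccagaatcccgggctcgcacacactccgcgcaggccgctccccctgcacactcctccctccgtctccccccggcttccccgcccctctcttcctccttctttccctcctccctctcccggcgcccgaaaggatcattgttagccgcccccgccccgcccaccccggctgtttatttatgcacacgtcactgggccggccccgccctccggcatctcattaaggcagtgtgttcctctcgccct
LEF1: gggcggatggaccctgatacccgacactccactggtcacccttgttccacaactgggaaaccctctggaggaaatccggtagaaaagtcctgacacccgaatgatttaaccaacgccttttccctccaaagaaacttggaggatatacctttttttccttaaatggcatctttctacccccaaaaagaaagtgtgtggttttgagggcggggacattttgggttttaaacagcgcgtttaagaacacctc
The core stood once in each orientation in the DKK1 window. A match is a description of the letters and not a bound site, and the absence of a match says only that these letters are not in these bases. AXIN2, NKD1, ZNRF3 and LGR5 had no entry in the table.

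Total counts per sample ranged from 14650839 to 18091755 in PC-3, from 11923105 to 14741883 in LNCaP and from 7203534 to 20976950 in CT1258, where the controls held 2.64 times the mean total of the PDA-66 samples. Levels below are in CPM, the reads of a gene relative to the TMM-scaled library size. A gene was called when its adjusted p was under 0.001, with p-values of the quasi-likelihood test of edgeR adjusted after Benjamini and Hochberg over all genes tested in its line. Unless another tool is named, every adjusted p below comes from this test. A single LNCaP library stood apart: PDA-66 12 h replicate 2 correlated with the other LNCaP samples at r between 0.890 and 0.939, against 0.952 to 0.996 among those 8, across log2 CPM of genes, which are not independent replicates. The luminal marker KLK3 was at 48.8 ± 21.3 CPM (SD, n = 3) in the LNCaP controls and at 0 in the PC-3 controls. In CT1258 TMPRSS2 was listed at 0 in every sample, and EPCAM at 0 in every control and at 0 to 0.262 CPM in the samples with PDA-66. EPCAM was the 1 of the 4 epithelial markers with a row in CT1258. The epithelial state of this line therefore cannot be read from them. Of the 3 fibroblast markers tested in PC-3, COL1A2 was the 1 called, lower by 3.33 and 1.97 on the log2 scale at 12 h and 24 h. PDGFRB was at -1.61 at 12 h (edgeR adjusted p = 0.0247). In CT1258 COL1A2 was the 1 fibroblast marker tested and fell by 1.85 and 2.81. The summed level of the list was 42.7 to 65.4 CPM in the PC-3 controls, 10.1 to 13.7 at 12 h and 16.9 to 22.1 at 24 h, and in CT1258 it was 83.3 to 89.3, 21.9 to 25.98 and 10.7 to 14.8 CPM. Of the 4 epithelial markers 2 fell in PC-3 at 12 h and 3 at 24 h, with summed levels of 517 to 576 CPM in the controls, 334 to 371 at 12 h and 331 to 455 at 24 h. In LNCaP the fibroblast list summed to 21.2 to 29.6 CPM in the controls, 18.99 to 125.9 at 12 h and 19.98 to 21.8 at 24 h. The epithelial list there summed to 1360 to 1453 CPM, 1334 to 2039 and 1478 to 1520. The leukocyte markers PTPRC and CD3E summed to at most 1.13 CPM in any sample. The part of these markers in the results was not tested. In bulk RNA, fewer cells that express a gene and less of its RNA per cell cannot be told apart.

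In untreated PC-3 cells DKK1 was by far the most abundant of the 10 genes. Per kilobase of exon, its mean level in the DMSO controls was 503 CPM, followed by TCF7L2 at 15.2, ZNRF3 at 3.25, TCF7 at 1.96, RNF43 at 1.56 and LGR5 at 1.28. AXIN2 was low at 0.198 CPM per kilobase and LEF1 at 0.136, and LGR6 and NKD1 had at most 1 read in each control. The ranges of RNF43 and LGR5 overlapped, as did those of AXIN2 and LEF1 and those of LGR6 and NKD1. In the LNCaP controls the order was another one, with ZNRF3 at 4.32 CPM per kilobase, TCF7L2 at 3.24, RNF43 at 3.04, AXIN2 at 2.33, LEF1 at 1.59, NKD1 at 0.239 and TCF7 at 0.166. Among these, the ranges of TCF7L2, RNF43 and AXIN2 overlapped from neighbour to neighbour, and so did those of NKD1 and TCF7. DKK1 had 0 reads in each of the 9 LNCaP libraries and its mean in the PC-3 controls was at least 3679-fold higher than the highest level that 3 reads per library would give in the LNCaP controls.

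In PC-3, after 12 h, the nuclear factor TCF7 and the scaffold AXIN2 rose and TCF7L2 fell, and the same calls were made at 24 h. That is 3 of the 8 genes tested in PC-3 at each time, against 27.6% of all 13777 genes tested at 12 h and 19.3% at 24 h, so the shares have to be read against many changed genes. At an adjusted p under 0.05 the counts were 5 and 4 of the 8, where 57% and 49.9% of all genes passed. The median log2 fold change of the 8 was 0.35 at 12 h against -0.01 over all genes, and 0.12 at 24 h against -0.01. NKD1 and LGR6, the other two, were too low to be tested.

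**Figure D1:**
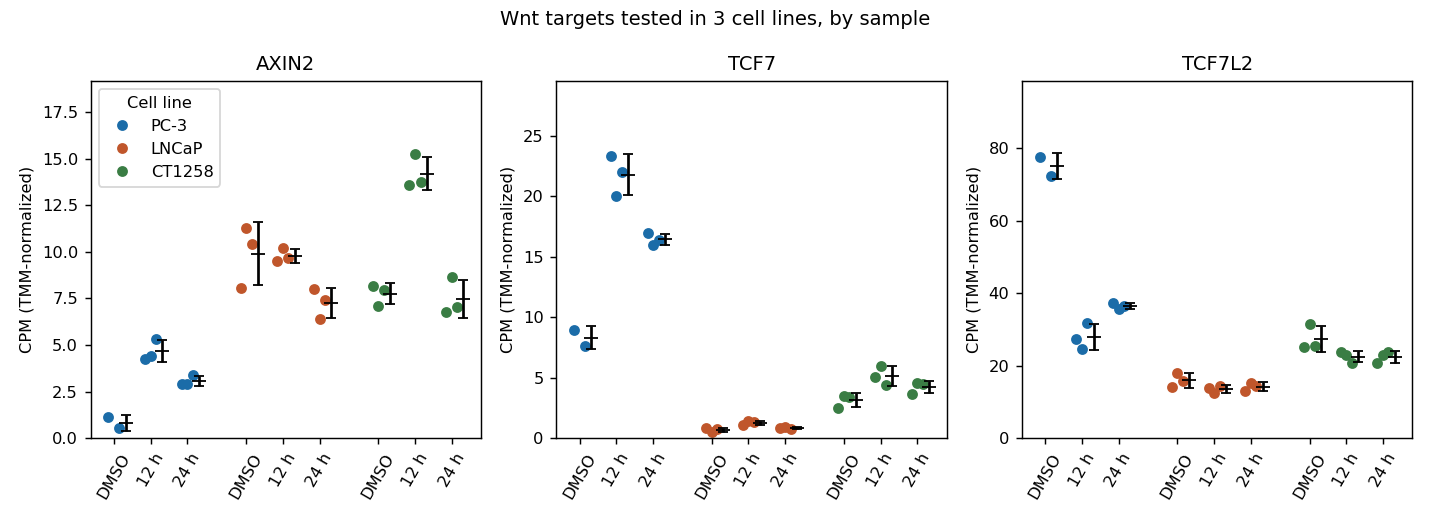
Normalized level in CPM (vertical axis, from 0) of AXIN2, TCF7 and TCF7L2 in each sample of PC-3, LNCaP and CT1258, by condition (horizontal axis). Points are samples and the bars give the mean ± SD. AXIN2 in PC-3 lies between 0.536 and 1.15 CPM in the controls and between 2.90 and 5.33 with PDA-66, and in CT1258 the 3 samples at 12 h lie above the others.

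Of the nuclear members, TCF7 encodes the factor TCF1, which carries β-catenin to DNA, and lies in GRCh37 on chromosome 5 from 133450372 to 133487556 on the + strand. Its level in PC-3 was 8.98 and 7.64 CPM in the controls, 23.3, 20.04 and 22.03 CPM after 12 h and 17.0, 16.01 and 16.4 CPM after 24 h. All samples with PDA-66 lay above both controls and those of 12 h above those of 24 h. TCF7 was 2.62-fold higher at 12 h (log2 1.39 ± 0.133 SE, edgeR adjusted p = 2.00e-06) and 1.98-fold higher at 24 h (log2 0.98 ± 0.134 SE, adjusted p = 6.54e-05). With limma voom and sample weights the adjusted p at 24 h was 0.00247, outside the threshold. TCF7L2 encodes TCF4, the best known partner of β-catenin in the intestine, and lies on chromosome 10 from 114710006 to 114927437 on the + strand. It went the other way, from 77.7 and 72.4 CPM in the controls to 27.5, 24.6 and 31.8 CPM at 12 h and 37.3, 35.5 and 36.4 CPM at 24 h. No groups overlapped, and TCF7L2 fell by 1.42 on the log2 scale at 12 h (SE 0.112, edgeR adjusted p = 3.79e-07) and by 1.04 at 24 h (SE 0.111, adjusted p = 9.56e-06). Between 24 h and 12 h, TCF7 differed by -0.41 on the log2 scale (edgeR adjusted p = 0.0295) and TCF7L2 by 0.38 (adjusted p = 0.0356), neither of which was called, and 1.41% of all genes were called between the times. At 0.05, 3 of the 8 genes differed between the times, TCF7, TCF7L2 and DKK1, where 10.1% of all genes did.

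LEF1, a factor that most adult epithelia hold at low levels and that β-catenin signalling raises, had 9 and 8 reads in the PC-3 controls, 34, 18 and 22 reads at 12 h and 36, 31 and 22 reads at 24 h. In CPM this was 0.608 and 0.536 in the controls, 1.88, 1.17 and 1.30 at 12 h and 2.13, 1.89 and 1.49 at 24 h. Both times lay above the controls and overlapped each other. The log2 difference of 1.34 at 12 h (SE 0.368, edgeR adjusted p = 0.00696) and of 1.68 at 24 h (SE 0.357, adjusted p = 0.00177) did not pass the threshold. By the likelihood ratio test of edgeR and without a filter on low counts LEF1 was called at 24 h (adjusted p = 4.33e-05 and 0.000926). At these counts the estimate carries a wide interval, from 0.55 to 2.14 on the log2 scale at 12 h.

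AXIN2, a scaffold of the degradation complex and the most widely used readout of the pathway, had the largest estimated log2 difference of the 8 genes tested in PC-3 at 12 h and 24 h, except that without control replicate 3 or without 24 h replicate 3 that of LEF1 was larger at 24 h (1.61 and 1.80). The controls held 17 and 8 reads, the samples of 12 h 77, 68 and 90 and those of 24 h 49, 48 and 50. The levels were 1.15 and 0.536 CPM in the controls, 4.25, 4.44 and 5.33 CPM at 12 h and 2.90, 2.93 and 3.38 CPM at 24 h, so that no groups overlapped. AXIN2 was 5.51-fold higher at 12 h (log2 2.46 ± 0.286 SE, edgeR adjusted p = 1.10e-05) and 3.62-fold higher at 24 h (log2 1.86 ± 0.302 SE, adjusted p = 0.000259). The size rests on few control reads. With 1 sample left out at a time the log2 difference ran from 2.03 to 3.11 at 12 h, where AXIN2 was called each time, and from 1.43 to 2.50 at 24 h, the lowest without control replicate 3 and the highest without control replicate 2. Without control replicate 3 the log2 difference was 1.43 at 24 h and its adjusted p was 0.00276, and without 24 h replicate 3 these were 1.79 and 0.00149. With limma voom and sample weights, AXIN2 had an adjusted p of 0.00158 at 12 h and 0.0203 at 24 h. In GRCh37 AXIN2 lies on chromosome 17 from 63524681 to 63557766 on the - strand. In GENCODE 30.9% of its exon bases are shared with another gene on that strand, ENSG00000266076. The study counted human reads over RefSeq genes, and whether this overlap touched the counts was not tested. NKD1, a Dishevelled-binding inhibitor, had 0 to 2 reads per PC-3 sample.

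The membrane ligases did not pass the test in PC-3. RNF43 was at 9.66 ± 1.52 CPM in the controls (SD, n = 2), 11.1 ± 1.55 at 12 h and 9.36 ± 1.10 at 24 h (SD, n = 3), with overlapping groups. ZNRF3 was at 22.7 ± 4.35 CPM in the controls, 26.2 ± 1.80 at 12 h and 27.2 ± 2.14 at 24 h. The log2 difference of RNF43 lay between -0.17 and 0.55 at 12 h and that of ZNRF3 between -0.08 and 0.50 (95% intervals).

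DKK1, on chromosome 10 from 54074041 to 54077802 on the + strand, was measured from far more reads, 11424 and 15582 in the controls. Its level was 771 and 1045 CPM in the controls, 1308, 1273 and 1255 CPM at 12 h and 899, 902 and 880 CPM at 24 h. The 12 h samples lay above both controls and those of 24 h lay between the controls. The difference at 12 h, 0.49 on the log2 scale (SE 0.118, edgeR adjusted p = 0.00295), did not pass the threshold, and that at 24 h was -0.02 (SE 0.116, adjusted p = 0.887). The size depended on the controls: with 1 sample left out at a time the log2 difference at 12 h ran from 0.30 to 0.74, the highest without control replicate 3. With both controls kept, DKK1 was called at 12 h by DESeq2, by the likelihood ratio test and without a filter (adjusted p = 0.000205, 0.000422 and 0.000727). The estimate for the R-spondin receptor LGR5 also depended on the controls. Its controls were at 8.04 and 3.69 CPM, and the PDA-66 samples lay between 3.61 and 4.77 CPM. The log2 difference at 24 h was -0.61 (edgeR adjusted p = 0.0662). Left out in turn, the controls moved it in opposite directions: without control replicate 3 it was -1.05 (adjusted p = 0.000422), and without control replicate 2 it was 0.063.

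**Figure D2:**
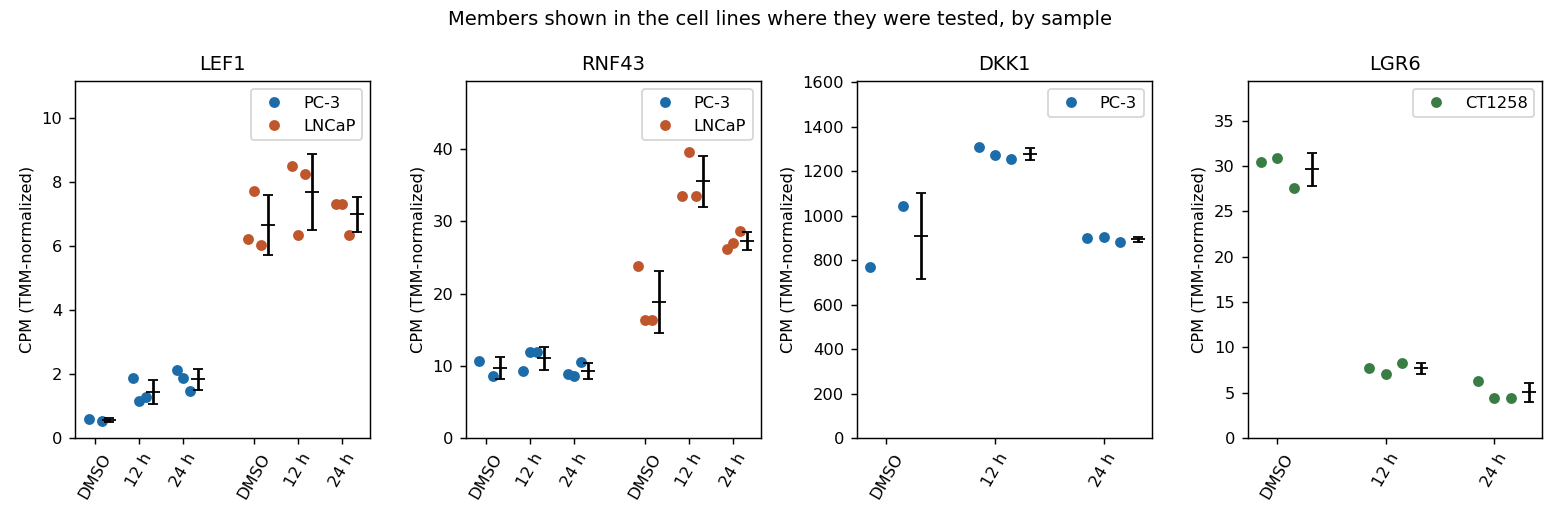
Normalized level in CPM (vertical axes, from 0) of LEF1 and RNF43 in PC-3 and LNCaP, DKK1 in PC-3 and LGR6 in CT1258, by sample and condition (horizontal axes). Points are samples and the bars give the mean ± SD. DKK1 controls lie at 771 and 1045 CPM, and LGR6 goes from 29.6 CPM in the controls to 7.70 and 5.06 CPM at 12 h and 24 h.

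In LNCaP none of the 7 genes tested was called at either time. The share of all 13156 genes called was 0.0076% at 12 h and 0% at 24 h. The study itself, with edgeR at the same threshold, reported far more changed genes in LNCaP at both times. Its methods do not name the edgeR test, so the low shares here belong to the quasi-likelihood test. At an unadjusted p under 0.05 the quasi-likelihood test of edgeR passed 2 of the 7 at 12 h and 3 at 24 h, where 30% and 19.8% of all genes passed. The likelihood ratio test of edgeR, DESeq2 and limma voom each called 1 of the 7 at 12 h, against 4.34%, 4.72% and 13.9% of all genes, and 0 at 24 h, against 1.96%, 2.18% and 11.2%. Without the library that stood apart, 1.96% of 13335 genes were called at 12 h and 0.787% at 24 h, and still 0 of the 7. At a threshold of 0.05 it was 1 of the 7 at 12 h and 2 at 24 h, RNF43 and ZNRF3, where 29.1% and 27.9% of all genes passed. With all libraries and a threshold of 0.05, the 1 gene at 12 h was RNF43 and there was none at 24 h, where 9.14% and 2.92% of all genes passed, and between the times 0% passed at either threshold. The common biological coefficient of variation was 0.240 with that library and 0.121 without it. The median log2 fold change of the 7 was 0.21 at 12 h against 0.03 over all genes, and 0.07 at 24 h against -0.01.

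The 1 gene those other tools called was RNF43, a ligase that removes Frizzled receptors. It was at 23.8, 16.3 and 16.4 CPM in the LNCaP controls, 33.5, 39.6 and 33.5 CPM at 12 h and 26.1, 27.0 and 28.7 CPM at 24 h. No groups overlapped. The log2 difference was 0.92 at 12 h (SE 0.187, edgeR adjusted p = 0.0196) and 0.53 at 24 h (SE 0.186, adjusted p = 0.149, and 0.0234 without 12 h replicate 2). At 12 h the adjusted p was 0.000898 by the likelihood ratio test, 0.000263 by DESeq2 and 6.45e-05 by limma voom, and over all alternatives it ran from 6.45e-05 to 0.0918. Without 12 h replicate 2 it was 0.00461 and the log2 difference 0.83. RNF43 lies on chromosome 17 from 56431037 to 56494956 on the - strand. GENCODE places 69.7% of the exon bases also in a second gene on the same strand, ENSG00000285897. Because the study counted over RefSeq genes, an effect of this overlap on the counts is not known and was not tested. Its homologue ZNRF3 was at 28.2, 33.0 and 29.4 CPM in the controls, 34.9, 29.6 and 35.5 CPM at 12 h and 42.3, 40.5 and 38.7 CPM at 24 h. The 24 h samples lay above all controls, with a log2 difference of 0.42 (SE 0.150, edgeR adjusted p = 0.153, and 0.0122 without 12 h replicate 2).

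AXIN2 did not differ at 12 h in LNCaP beyond its spread, where it stood at 9.91 ± 1.67 CPM in the controls and 9.80 ± 0.37 CPM at 12 h (SD, n = 3). The 95% interval of the log2 difference ran from -0.43 to 0.39, which leaves out the sizes estimated in PC-3. At 24 h it was at 7.28 ± 0.804 CPM (SD, n = 3), below the lowest control of 8.04 CPM, with a log2 difference of -0.44 (SE 0.185, edgeR adjusted p = 0.220). TCF7 had 6 to 12 reads in the controls, 16 to 19 at 12 h and 10 to 13 at 24 h, with a log2 difference of 0.83 at 12 h (SE 0.306, adjusted p = 0.113). TCF7L2 was at 15.9 ± 1.97 CPM in the controls, 13.6 ± 1.03 at 12 h and 14.2 ± 1.21 at 24 h (SD, n = 3), with overlapping groups. LEF1, at 6.65 ± 0.940 CPM in the controls, was at 7.70 ± 1.18 and 6.99 ± 0.547 CPM with PDA-66. NKD1 was at 4.37, 4.69 and 3.16 CPM in the controls and 4.45, 8.56 and 5.74 CPM at 12 h, where the highest value came from the library that stood apart, and its log2 difference went from 0.61 to 0.32 without it. LGR5 and LGR6 had at most 3 reads in any LNCaP sample.

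**Figure D3:**
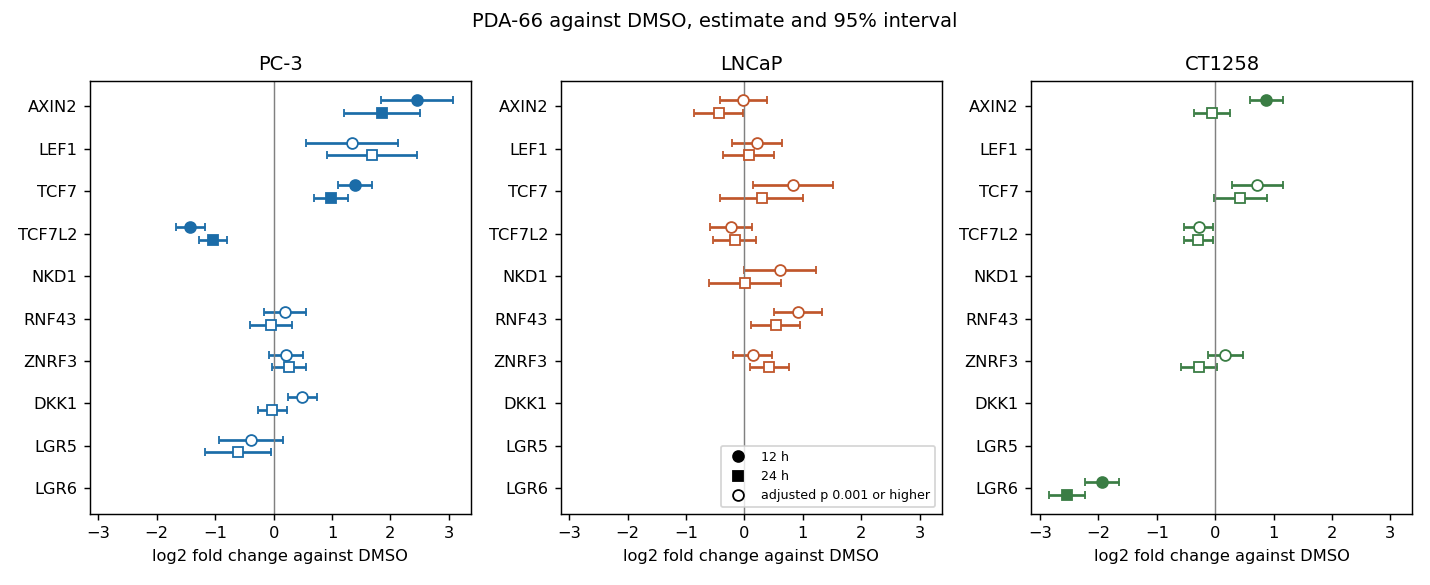
Log2 fold change against DMSO (horizontal axis) of each gene tested (vertical axis) in PC-3, LNCaP and CT1258, with circles for 12 h, squares for 24 h and bars for the 95% interval. Filled symbols mark an adjusted p under 0.001, and rows with no symbol were not tested in that line. PC-3 has 3 genes called at each time, LNCaP 0, and CT1258 2 at 12 h and 1 at 24 h.

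In CT1258, 2 of the 5 genes tested were called at 12 h, AXIN2 higher and LGR6 lower, and 1 of the 5 at 24 h, LGR6 again. Of all 9886 genes tested, 44.3% were called at 12 h and 33.8% at 24 h, so that the counts were no higher than the background. At 0.05 the counts were 4 and 2 of the 5, where 69.8% and 62.1% of all genes passed. The median log2 fold change of the 5 was 0.17 at 12 h against -0.00 over all genes and -0.27 at 24 h against -0.01. DKK1, LGR5 and NKD1 were listed at 0 in all 9 samples, and RNF43 had 2 to 13 reads. Counting 3 reads as the limit, a count of 0 allows up to 0.149 CPM in the CT1258 controls and up to 0.407 CPM in the PDA-66 samples.

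LGR6, a receptor for R-spondins, had the largest change among the 5 genes tested in CT1258. The controls held 614, 620 and 554 reads, or 30.5, 30.8 and 27.5 CPM, against 7.73, 7.08 and 8.29 CPM at 12 h and 6.26, 4.46 and 4.48 CPM at 24 h. No groups overlapped. LGR6 fell by 1.94 on the log2 scale at 12 h (SE 0.135, edgeR adjusted p = 4.38e-08) and by 2.54 at 24 h (SE 0.145, adjusted p = 1.19e-08). It was called under every alternative run for both comparisons, where its log2 difference lay between -2.0003 and -1.89 at 12 h and between -2.73 and -2.45 at 24 h.

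AXIN2 in CT1258 was called at 12 h and not at 24 h. The levels were 8.18, 7.11 and 7.95 CPM in the controls, 13.6, 15.2 and 13.8 CPM at 12 h and 6.75, 8.66 and 7.05 CPM at 24 h. The samples of 12 h lay above all others, and those of 24 h overlapped the controls. AXIN2 was 1.83-fold higher at 12 h (log2 0.87 ± 0.133 SE, edgeR adjusted p = 4.87e-05), while at 24 h the log2 difference from the controls was -0.05 (SE 0.145, adjusted p = 0.775). The difference between 24 h and 12 h, tested itself, was -0.92 on the log2 scale (SE 0.148, adjusted p = 0.00103), just outside the threshold, where 2.13% of all genes were called and 19.3% passed at 0.05. Over the alternatives its adjusted p ran from 1.58e-06 to 0.00912.

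No nuclear member was called in CT1258 by edgeR's quasi-likelihood test, and limma voom called TCF7 at 12 h (log2 difference 0.88, adjusted p = 0.000119). TCF7 was at 2.48, 3.53 and 3.43 CPM in the controls, 5.06, 5.996 and 4.41 CPM at 12 h and 3.68, 4.59 and 4.48 CPM at 24 h. Both times lay above the controls, with a log2 difference of 0.72 at 12 h (SE 0.203, edgeR adjusted p = 0.00618) and 0.43 at 24 h (SE 0.211, adjusted p = 0.0909). TCF7L2 was at 25.2, 31.6 and 25.4 CPM in the controls, 23.7, 22.9 and 20.8 CPM at 12 h and 20.7, 22.8 and 23.9 CPM at 24 h. All PDA-66 samples lay below the controls, with a log2 difference of -0.28 at 12 h (SE 0.118, edgeR adjusted p = 0.0438) and -0.29 at 24 h (SE 0.118, adjusted p = 0.0473). ZNRF3 was at 20.3 ± 3.92 CPM in the controls, 22.9 ± 2.22 at 12 h and 16.8 ± 0.466 at 24 h (SD, n = 3), and no comparison of it was called.

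Whether the lines differed in their response was tested as a difference of log2 fold changes in a fit of all 26 samples over 11736 genes. AXIN2 responded more in PC-3 than in LNCaP, by 2.51 on the log2 scale at 12 h (SE 0.309, edgeR adjusted p = 6.33e-06) and by 2.32 at 24 h (SE 0.316, adjusted p = 5.53e-05). Against CT1258 the response of AXIN2 in PC-3 was larger by 1.57 at 12 h (SE 0.311, edgeR adjusted p = 0.00049) and by 1.90 at 24 h (SE 0.320, adjusted p = 0.00018). TCF7L2 fell further in PC-3 than in LNCaP at 12 h, by a difference of -1.16 (SE 0.198, adjusted p = 0.000245), and further than in CT1258, by a difference of -1.15 (SE 0.196, adjusted p = 9.80e-05). The share of all genes called in these comparisons was 3.57% and 1.23% for PC-3 against LNCaP at 12 h and 24 h, and 9.33% and 4.79% for PC-3 against CT1258. The genes compared were AXIN2, TCF7, TCF7L2 and ZNRF3, with RNF43 added for PC-3 against LNCaP. At 0.05, PC-3 and LNCaP differed for 2 of them at each time, where 19.6% and 9.7% of all genes did. PC-3 and CT1258 differed for 3 at 12 h and 2 at 24 h, where 30.1% and 21.2% did. Several of these calls rest on PC-3 control replicate 3. Without it, AXIN2 kept a called difference from LNCaP at 12 h, but at 24 h its difference was 1.85 (edgeR adjusted p = 0.00201), and from CT1258 it was 1.19 at 12 h (adjusted p = 0.0119) and 1.52 at 24 h (adjusted p = 0.00467). The call for AXIN2 against CT1258 at 12 h was also lost without PC-3 12 h replicate 3, CT1258 12 h replicate 1 or 3, or CT1258 control replicate 1 or 3. In those fits its difference stayed between 1.52 and 1.61, with adjusted p between 0.00104 and 0.00155. TCF7L2 against LNCaP at 12 h was lost without PC-3 control replicate 2 (difference -1.14, adjusted p = 0.00126), and without LNCaP 12 h replicate 2 it was called at 24 h as well.

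The response of TCF7 was not called as different between any of the lines. At 12 h the adjusted p was 0.226 for PC-3 against LNCaP, 0.0483 for PC-3 against CT1258 and 1.00 for LNCaP against CT1258 by edgeR. Between LNCaP and CT1258 none of the 4 genes compared, AXIN2, TCF7, TCF7L2 and ZNRF3, was called, where 12.8% of all genes were at 12 h and 3.44% at 24 h. At 0.05, 1 of the 4 passed at each time, AXIN2 at 12 h (edgeR adjusted p = 0.00294) and ZNRF3 at 24 h (adjusted p = 0.0218), where 40.2% and 21.1% of all genes did. For these genes the quasi-likelihood test of edgeR had an unadjusted p under 0.05 for AXIN2 at 12 h and ZNRF3 at 24 h, where 47.7% and 33.1% of all genes passed, and the likelihood ratio test called AXIN2 at 12 h, as it did 20% of all genes. LEF1, which has no row in CT1258, was tested in a fit of the human tables alone that was chosen after seeing the data. The difference between its responses in PC-3 and LNCaP was 1.18 at 12 h (edgeR adjusted p = 0.0506) and 1.64 at 24 h (adjusted p = 0.0168), where 1.53% and 0.266% of all 15018 genes were called at 0.001. In that fit TCF7L2 at 12 h (difference -1.14, adjusted p = 0.00212) and AXIN2 at 24 h (difference 2.33, adjusted p = 0.00124) were no longer called. Their differences stayed about as large as in the fit of all 26 samples, -1.16 and 2.32.

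Other genes of the pathway, 89 in 7 lists from ligands to further targets, were read beside the 10. In PC-3 57 were tested, of which 10 rose and 4 fell at 12 h and 6 rose and 4 fell at 24 h. These shares were no higher than the 27.6% and 19.3% of all genes called at those times. Their median log2 fold change was 0.12 at 12 h and 0.17 at 24 h, against -0.01 over all genes at both times. The largest change was in SP5, a transcription factor and direct target of β-catenin, which had 12 and 7 reads in the controls and 54, 45 and 49 at 12 h. SP5 was higher by 2.19 on the log2 scale at 12 h (edgeR adjusted p = 4.36e-05) and by 2.13 at 24 h (adjusted p = 8.76e-05). Of the 6 ligands tested, WNT7B and WNT9A rose, by 2.04 and 1.92 at 12 h and by 1.62 and 1.30 at 24 h. KREMEN1, a receptor of DKK1, was higher by 1.64 at 12 h and 1.28 at 24 h. In contrast MYC, a growth regulator that β-catenin induces in colon cells, went from 759 ± 41.7 CPM in the controls (SD, n = 2) to 224 ± 11.7 CPM at 12 h (SD, n = 3). MYC fell by 1.76 on the log2 scale at 12 h and by 1.00 at 24 h, and the Frizzled receptor FZD4 fell by 1.68 and 1.08. Neither CCND1, which encodes cyclin D1, at -0.02 and -0.42 on the log2 scale, nor CTNNB1, the gene of β-catenin, at 0.46 and 0.40, was called in PC-3. The same holds for GSK3A at 0.43 and 0.42, GSK3B at 0.28 and 0.54 and AXIN1 at -0.25 and -0.14, where each pair gives 12 h and 24 h.

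**Figure D4:**
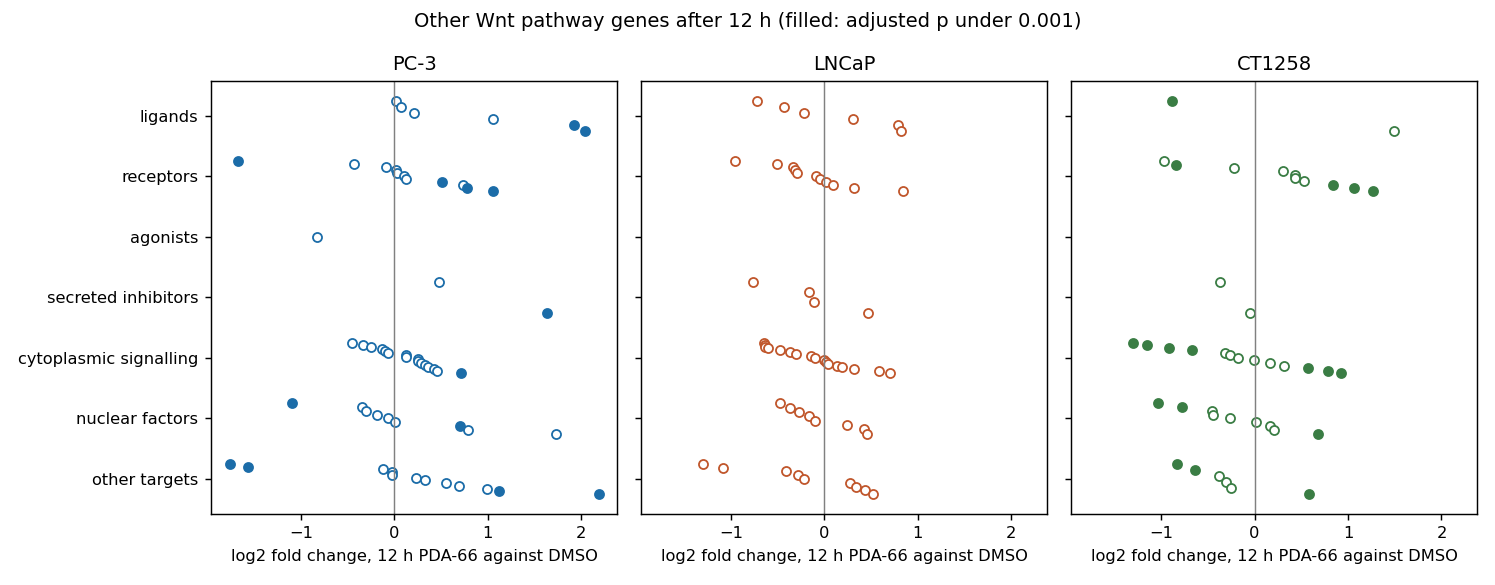
Log2 fold change after 12 h of PDA-66 against DMSO (horizontal axis) of the other Wnt pathway genes tested in each line, grouped by role (vertical axis). Points are genes, filled where the adjusted p was under 0.001. PC-3 has 10 genes called higher and 4 lower, LNCaP 0, and CT1258 8 higher and 10 lower.

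In LNCaP 0 of 55 of these genes were called at either time by edgeR's quasi-likelihood test, with 13 at 12 h and 8 at 24 h at an unadjusted p under 0.05, shares below the 30% and 19.8% of all genes. Their median log2 fold change was -0.11 at 12 h against 0.03 over all genes and -0.09 at 24 h against -0.01. CTNNB1 was at 0.19 on the log2 scale at 12 h, MYC at -0.28, CCND1 at 0.34, GSK3A at -0.15, GSK3B at -0.36 and AXIN1 at 0.71, and SP5 had at most 1 read in a sample. In CT1258 42 of the 79 listed were tested, of which 8 rose and 10 fell at 12 h and 2 rose and 10 fell at 24 h, with medians of -0.20 and -0.26 on the log2 scale against -0.00 and -0.01 over all genes. The shares called were no higher than the 44.3% and 33.8% of all genes. LGR4, the broadly expressed relative of LGR5 and LGR6, rose from 58.7 ± 3.37 CPM in the controls to 141 ± 7.998 CPM at 12 h and 115 ± 5.70 CPM at 24 h (SD, n = 3), or by 1.27 and 0.97 on the log2 scale. Dishevelled DVL1, which passes the receptor signal on, fell by 1.30 and 0.90, casein kinase CSNK1E fell by 1.15 and 1.17, and the corepressor TLE3 fell by 1.03 and 1.21. PYGO2, a partner of β-catenin in the nucleus, fell by 1.10 at 24 h, and FZD4 rose by 1.06 at 12 h. CCND1 fell by 0.63 at 12 h and 0.71 at 24 h and GSK3B rose by 0.78 at 12 h, while MYC at -0.38 and -0.30 was not called. GSK3A at -0.18 and -0.28 and AXIN1 at -0.27 and -0.15 were not called in CT1258 either, SP5 was listed at 0 in all its samples and CTNNB1 had no row.

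The genes most like AXIN2 were sought over all 26 samples by the correlation of log2 CPM deviations from the mean of the line, among 8265 genes tested in all 3 lines. The highest were KPNB1, a nuclear import receptor, at r = 0.92, WWC2, a regulator of Hippo signalling, at 0.89 and TRAF3, an adaptor of immune receptors, at 0.89. Within LNCaP the same r was 0.52 for KPNB1, 0.64 for WWC2 and 0.07 for TRAF3. Of the 10 genes themselves, TCF7 had an r of 0.73 with AXIN2, TCF7L2 one of -0.78 and ZNRF3 one of 0.38. These samples share conditions, controls and depth, and the values describe these libraries only.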

How the data were processed

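RNA of 27 samples of the 3 lines was sequenced as single reads of poly(A)-selected libraries (NEBNext Ultra), and 26 samples had a count column. The authors deposited counts of reads per gene, without normalization. Per the labels and the study's methods, the aligner was STAR 2.3.1s on hg19 for the human lines and BWA on CanFam3.1 for CT1258, and edgeR 3.14.0 served their own tests. Strand use and the handling of multiply mapped reads are not given in the sources used here. The PC-3 12 h columns P12-1 and P12-2 could be tied to their group only. Separators behind the counts of the last PC-3 column were removed.

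Each line was fitted on its own with R 4.3.3 and edgeR 4.0.16: filterByExpr, TMM, quasi-likelihood test, Benjamini-Hochberg adjustment over all genes tested, threshold 0.001 as in the study. Differences between lines were tested as interactions. Limma 3.58.1 and DESeq2 1.42.0 served as alternatives, with other normalizations, filters, a replicate block, thinned CT1258 controls and each sample left out in turn. The fits were tested on simulated data. Named were all 10 members, the 6 other Wnt genes per line with the largest called change, 7 fixed genes (CTNNB1, GSK3A, GSK3B, AXIN1, MYC, CCND1 and SP5) and the 3 genes most like AXIN2. Members, lists and tests were chosen with earlier results of these data known. Positions and exon lengths came from GENCODE on GRCh37, promoters from RefSeq. Intervals and zero limits cover counting error and sample spread only. The level of 1 gene of the marker lists is not reported here.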

Additional observations from a re-analysis of the deposited data

Results flagged for a closer look

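The difference in response between cell lines passed the test of the difference itself, at an adjusted p under 0.001 by edgeR, in 6 results for AXIN2 and TCF7L2. AXIN2 differed between PC-3 and LNCaP by 2.51 on the log2 scale at 12 h and by 2.32 at 24 h, and between PC-3 and CT1258 by 1.57 at 12 h and by 1.90 at 24 h. TCF7L2 differed by -1.16 between PC-3 and LNCaP and by -1.15 between PC-3 and CT1258, both at 12 h. With 1 sample left out, 4 of the 6 were lost under at least 1 choice of that sample: AXIN2 between PC-3 and LNCaP at 24 h (adjusted p up to 0.00201), AXIN2 between PC-3 and CT1258 at 12 h (up to 0.0119) and 24 h (up to 0.00467), and TCF7L2 between PC-3 and LNCaP (up to 0.00126). In each of the 6, all PC-3 samples with PDA-66 lay on 1 side of both PC-3 controls. The same samples gave the calls, so this order adds no separate support.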

How the results depend on the processing

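The fits used here had 2 to 3 samples a group, and the main limits are the 2 PC-3 controls, the LNCaP library that stood apart and the low counts of AXIN2 and LEF1 in PC-3. Of 1389 alternative values, 1289 kept their direction and side of the threshold or, for counts, stayed within 1.5 times. Beside the threshold of 0.05 and left-out samples, the counts that changed within that limit were those of PC-3 at 12 h, which went from 3 to 4 with DKK1 by DESeq2, the likelihood ratio test and without a filter and to 2 without AXIN2 by limma voom, of PC-3 at 24 h, which went to 4 with LEF1 by the likelihood ratio test and without a filter, and of CT1258 at 12 h, which went from 2 to 3 with TCF7 by limma voom. At an adjusted p under 0.05, 5 genes were called in PC-3 at 12 h, 3 in PC-3 between 24 h and 12 h, 1 in LNCaP at 12 h, and 4, 2 and 2 in CT1258 at 12 h, at 24 h and between the times. For the differences in response at that threshold, PC-3 against LNCaP and against CT1258 at 24 h each had 2, and LNCaP against CT1258 had 1 at 12 h and 1 at 24 h. In PC-3 between 24 h and 12 h the likelihood ratio test and DESeq2 each called 1 gene, DKK1, and limma voom 4, while in PC-3 at 24 h limma voom called 1, TCF7L2. In LNCaP at 12 h the likelihood ratio test, DESeq2 and limma voom called 1, RNF43. In CT1258 between 24 h and 12 h, 1 was called without a filter and by each of those 3 tools, AXIN2. For the alternative tools and filters in PC-3 and in CT1258, the share of all genes called was not counted. Those counts therefore stand without a background, while the shares at 0.05 are given above. The likelihood ratio test called 1 between LNCaP and CT1258 at 12 h, and the human tables alone, chosen after seeing the data, gave 1 and 0 for PC-3 against LNCaP at 12 h and 24 h. The cause was not tested.

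Leaving out each sample in turn gave 3 to 4 called in PC-3 at 12 h and 2 to 3 at 24 h, 0 to 1 called in PC-3 and in CT1258 between 24 h and 12 h, 1 to 2 for PC-3 against LNCaP at 12 h, 0 to 2 at 24 h, and for PC-3 against CT1258 1 to 2 at 12 h and 0 to 1 at 24 h. The samples whose absence changed a count were PC-3 control replicates 2 and 3, PC-3 12 h replicate 3, PC-3 24 h replicate 3, LNCaP 12 h replicate 2, CT1258 12 h replicates 1 and 3 and CT1258 control replicates 1, 2 and 3.

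Signs turned only for differences that were not called. Scaled by library size only, the log2 difference was 0.031 for RNF43 and 0.054 for DKK1 in PC-3 at 24 h and -0.0044 for NKD1 in LNCaP at 24 h. DKK1 in PC-3 at 24 h was at 0.011 without a filter and 0.0047 with limma voom, where TCF7L2 between 24 h and 12 h was at -0.020 in LNCaP and 0.0052 in CT1258. With samples left out, LGR5 in PC-3 ran from -0.83 to 0.29 at 12 h and from -1.05 to 0.063 at 24 h, RNF43 in PC-3 at 24 h ran from -0.18 to 0.13, DKK1 at 24 h from -0.22 to 0.23, AXIN2 in LNCaP at 12 h from -0.14 to 0.086, NKD1 in LNCaP at 24 h from -0.14 to 0.12, AXIN2 in CT1258 at 24 h from -0.17 to 0.021 and TCF7L2 in CT1258 between the times from -0.053 to 0.054.

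A replicate block changed no call, and it moved RNF43 in PC-3 at 24 h to 0.0013 on the log2 scale. Deviations of samples with the same number correlated between -0.42 and 0.19 in LNCaP. In CT1258 these values lay between -0.19 and 0.15 and in PC-3 between -0.11 and 0.08. The deviations were taken from the means of small groups, which ties them to each other. They therefore cannot decide whether samples with the same number were prepared together. In PC-3 the block could be fitted for 24 h alone.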

Other observations

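The prostate kallikrein KLK2 was at 5.91 ± 4.25 CPM in the CT1258 controls (SD, n = 3) and had 0 reads in all 6 CT1258 samples with PDA-66. It was the only gene of that table with at least 1 CPM in every control and 0 reads in every PDA-66 sample, and PC-3 and LNCaP had 0 such genes. This value was noticed in the marker lists after the data were seen.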
